A study of Homo sapiens with 6 samples.

Results

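The cytosolic ribosomal protein genes were described here as the 52 genes, of 19775 genes read by a probe set with a single gene symbol, whose symbol is RPL, RPS or RPLP followed by a number and at most one letter A or X. The rule used names only and no measured value. Of the 52, 30 encode proteins of the large subunit, 20 proteins of the small subunit and 2 acidic proteins of the stalk. Each gene was read at its brightest probe set by mean over all arrays, and all 52 lay above the level filter described below. Matching symbols that were read only by probe sets carrying several symbols, 15 in number, are not described.

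The cells were L428, an established line of Hodgkin lymphoma, grown in RPMI medium with fetal bovine serum. All samples were nucleofected, 3 with a locked nucleic acid (LNA) that inhibits miR-9, a microRNA, and 3 with a scrambled LNA, and there was no untransfected group. Total RNA was taken 9 h later and read on 6 Affymetrix HG-U133 Plus 2.0 arrays, 1 per sample. The labels number the replicates 1 to 3 in both groups and do not tell separate cultures from repeats of one, so a p-value here covers only the spread among these samples, which may be technical. Values are deposited log2 levels, differences were taken as miR-9 LNA minus scrambled, errors of means are SDs (n = 3 arrays per group) and errors of differences are standard errors from limma. The number of arrays limits the precision.

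Ribosomal proteins coat and fold the ribosomal RNA of the large and the small subunit, and every growing cell makes them in large and matched amounts. Their mRNAs are among the most abundant of a cell, and most begin with a cytosine followed by an uninterrupted run of pyrimidines, the 5′ terminal oligopyrimidine (TOP) element, through which growth signals govern their translation. Free ribosomal proteins such as RPL11 also bind MDM2, which links ribosome assembly to p53. In tumour cells the demand for ribosomes is high and is set in part by MYC.

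The TOP element could be looked for in RefSeq promoters (GRCh38.p14) of 46 of the 52 genes, which had 53 annotated starts. A run of at least 5 C or T letters that begins with C exactly at the start, read on the gene's own strand, was present at 1 or more starts of 34 of these 46 genes (73.9%). The same run was present in 5.14% of all 27305 genes of the table, and in 4.07% of its 35116 promoters against 64.2% of those of the ribosomal protein genes. Among mitochondrial ribosomal protein genes, whose products serve the separate ribosome of the organelle, 7.46% of 67 genes had it. The letters TCT from the base before the start to the base after it, which overlap the run, were found in 26.1% of the ribosomal protein genes and 2.75% of all genes. A match is a property of the sequence and does not show that the start is used in L428. The windows below run from 10 bases before the start through the 20 bases from the start onward, with the run in capitals. They show RPL41, the brightest gene, genes of each subunit and of the stalk with a run, RPL36, the gene of smallest difference, and RPS4X and RPL9, which lack a run at the annotated start.
RPL41 (chr12:56116623-56116652, plus strand): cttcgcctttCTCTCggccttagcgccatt
RPS19 (chr19:41860245-41860274, plus strand): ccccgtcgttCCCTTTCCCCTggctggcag
RPS14 (chr5:150449720-150449749, minus strand): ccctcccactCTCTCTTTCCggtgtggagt
RPS6 (chr9:19380217-19380246, minus strand): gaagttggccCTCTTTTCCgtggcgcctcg
RPLP1 (chr15:69452808-69452837, plus strand): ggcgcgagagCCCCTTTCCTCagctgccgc
RPL24 (chr3:101686699-101686728, minus strand): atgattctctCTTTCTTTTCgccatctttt
RPL36 (chr19:5690285-5690314, plus strand): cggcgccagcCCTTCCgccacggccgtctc
RPS4X (chrX:72277229-72277258, minus strand): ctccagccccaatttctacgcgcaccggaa
RPL9 (chr4:39458903-39458932, minus strand): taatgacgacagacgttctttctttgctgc
RPS19 has 2 annotated starts, of which the one with the longer run is shown. In RPL9 a pyrimidine run lies a few bases inside the start and was not counted.

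Ribosomal protein genes were among the brightest of the array. Their mean level over the 6 arrays ranged from 7.21 to 14.92 with a median of 14.18, against a median of 8.42 over the 12367 tested genes. Of the 52 genes 48 lay at 13 or more and 36 at 14 or more, where only 22 other tested genes lay. RPL41, which encodes the shortest ribosomal protein, was the brightest, followed by RPL37A, RPS4X, RPL23A and RPS15. The 5 dimmest were RPS9 at 13.497, RPL36 at 12.58, RPL27A at 9.26, RPLP2 at 7.45 and RPL36A at 7.21. The probe sets for RPLP2 and RPL36A lay within 0.35 of the filter at 7.11, so their differences may be understated. Most other members lay near the highest values of the arrays, 14.65 to 15.11, where differences may be understated too, which was not tested. Levels of different genes come from different probes and do not order the mRNAs by amount.

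On the array, L428 had the markers of Hodgkin cells. All 7 Hodgkin markers lay above the filter, between 9.26 (CD40) and 12.70 (CCL17), with TNFRSF8, which encodes CD30, at 10.51. Of 5 B cell, 6 T and NK cell, 4 monocyte and 4 fibroblast and endothelial markers, 2, 1, 1 and 3 lay above the filter, the highest being COL1A1 at 8.16. The log2 of the summed Hodgkin markers was 14.16 to 14.34 on miR-9 LNA arrays and 14.14 to 14.23 on scrambled arrays. For B cell markers it was 9.40 to 9.47 and 9.46 to 9.52, for T and NK cell markers 9.57 to 9.63 and 9.61 to 9.71, for monocyte markers 8.90 to 8.96 and 8.91 to 9.03, and for fibroblast and endothelial markers 9.40 to 9.50 and 9.44 to 9.50. Their part in the results was not tested.

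All 52 ribosomal protein genes had a positive difference with the miR-9 LNA, and none passed the test. The median log2 difference was 0.13, with a range from 0.01 (RPL36) to 0.32 (RPL27A). The array as a whole leaned the same way, since 66.9% of the 27307 tested probe sets had a difference above 0, with a median of 0.06. At a limma adjusted p under 0.05, 0 of the 52 genes were called, where percent called over all tested probe sets was 0, and limma adjusted p of the 52 ranged from 0.376 to 0.960. At an unadjusted p under 0.05, 0 of the 52 were higher and 0 lower, against 13.8% and 0.626% of all tested probe sets (21.8% higher with replicate number as a block, where 0 of the 52 were called too). The standard errors of the 52 differences had a median of 0.11, against 0.08 over all tested probe sets.

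The size of the common difference rested on the arrays numbered 1. The median level of the 52 genes was 14.38, 14.18 and 14.23 on miR-9 LNA replicates 1, 2 and 3, and 13.89, 14.22 and 14.26 on scrambled replicates 1, 2 and 3. Scrambled replicate 1 stood apart below the other 5 arrays, while scrambled replicates 2 and 3 lay between the miR-9 LNA arrays. It was the lowest of the 6 arrays for 50 of the 52 genes (96.2%), against 44.3% of all tested probe sets. Among other genes of like brightness it was the lowest for 22 of 22 at a level of 14 or more and for 83 of 88 from 13 up to 14. The exceptions were RPL36, lowest on miR-9 LNA replicate 2, and RPL36A, lowest on scrambled replicate 2. At the other end, miR-9 LNA replicate 1 was the highest array for 45 of the 52 genes. Without scrambled replicate 1 the median difference of the 52 genes was 0.01, with 36 of 52 (69.2%) above 0 and 16 below, where 63.2% of all tested probe sets lay above 0. With miR-9 LNA replicate 1 left out instead, the median was 0.08. By limma on the 5 arrays without scrambled replicate 1, 0 of the 52 had an unadjusted p under 0.05, against 13.2% of all tested probe sets (10.0% in the higher direction).

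**Figure D1:**
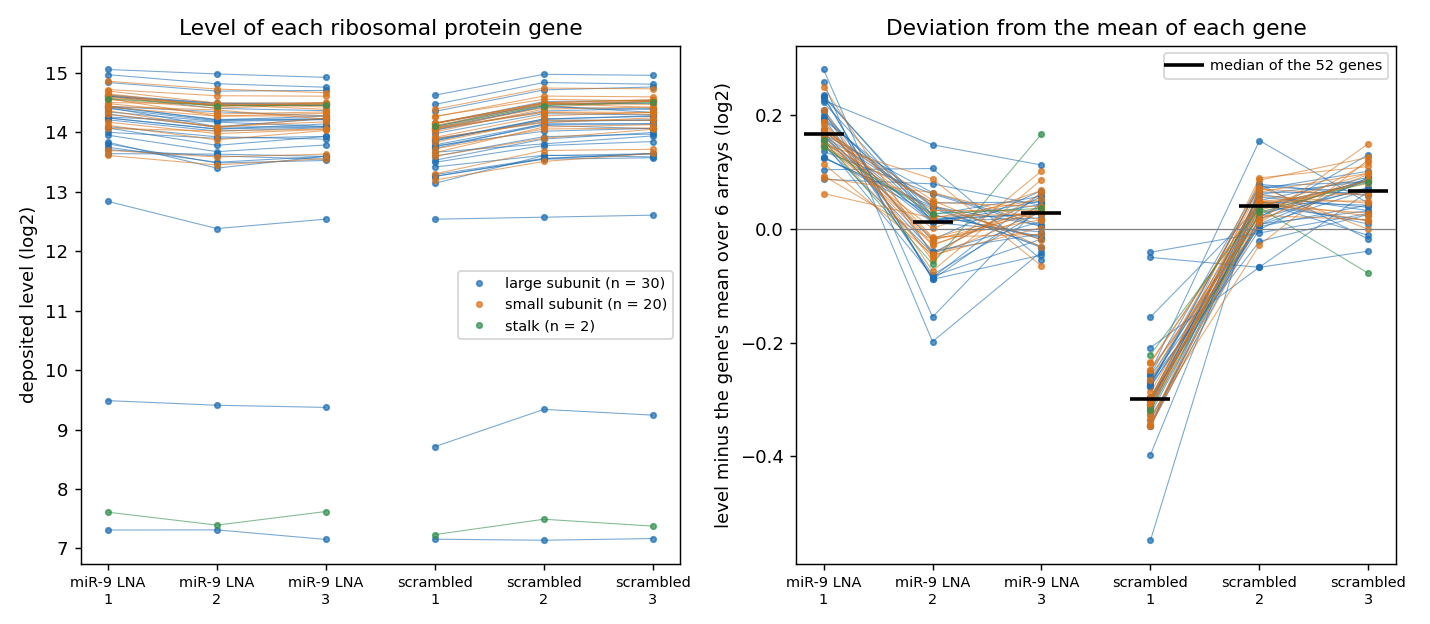
The left panel plots the deposited log2 level of each of the 52 ribosomal protein genes on the 6 arrays, and the right panel the same level minus the gene's own mean over the 6 arrays. Points are single genes, lines join the arrays of a group, and black bars in the right panel are medians over the 52 genes. Scrambled replicate 1 lies lowest for 50 genes and miR-9 LNA replicate 1 highest for 45.

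Within same-numbered arrays the sign of the difference changed from pair to pair. Between the replicates numbered 1, all 52 genes were higher with the miR-9 LNA, by a median of 0.46 and from 0.15 (RPL36A) to 0.77 (RPL27A), where 68.4% of all tested probe sets were higher. Between the replicates numbered 2, 41 of the 52 (78.8%) were lower, with a median of -0.03. Between the replicates numbered 3, 43 (82.7%) were lower, with a median of -0.05. The array as a whole did otherwise in the latter pairs, where 40.2% and 33.3% of all tested probe sets were lower, and 59.8% and 66.7% higher. The 22 other tested genes at 14 or more had median differences of 0.44, 0.004 and -0.03 in the 3 pairs, with 10 lower in the second pair and 17 lower in the third. With both arrays numbered 1 left out, a comparison chosen after seeing the data, the median of the 52 was -0.04, with 11 above 0.

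**Figure D2:**
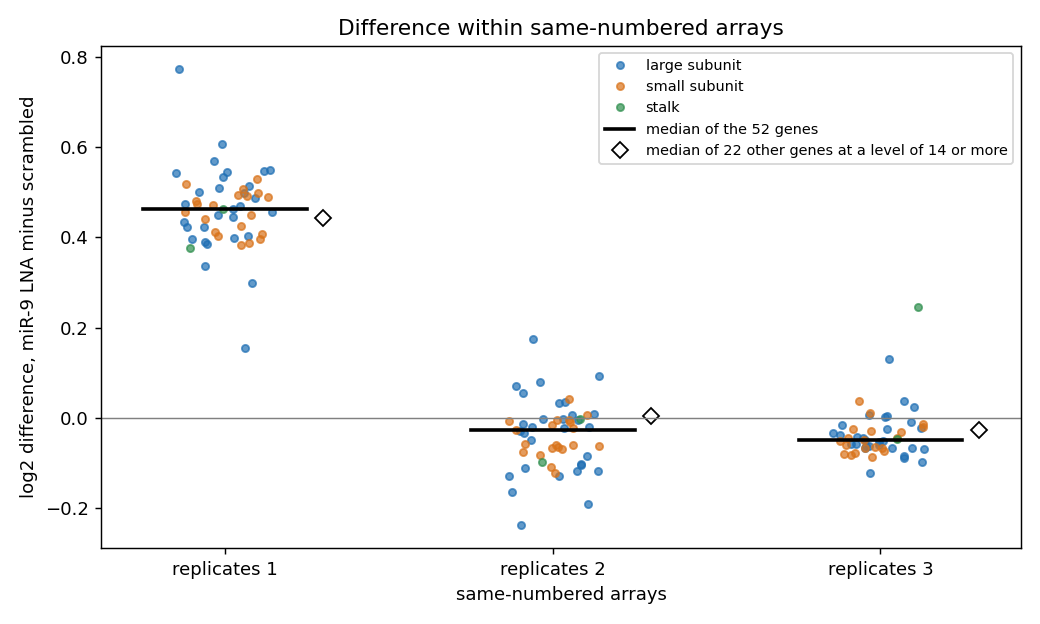
Each point is the log2 difference of 1 ribosomal protein gene between the miR-9 LNA and scrambled arrays of the same number, black bars are medians over the 52 genes, and open diamonds are medians of the 22 other genes at a level of 14 or more. All 52 points lie above 0 for the replicates numbered 1, and 41 and 43 lie below 0 for those numbered 2 and 3.

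Technical values set the arrays numbered 1 apart in part. The spike-in dap, a bacterial RNA added in the assay, read 10.05 on scrambled replicate 1 and 7.97 to 8.55 on the other arrays, as the mean of its probe sets. The 99th percentile of the array was 12.14 on scrambled replicate 1, 12.56 on miR-9 LNA replicate 1 and 12.40 to 12.47 on the other 4 arrays. The 3′ minus 5′ difference of the beta-actin control probe sets was raised on both, at 0.87 on miR-9 LNA replicate 1 and 0.58 on scrambled replicate 1 against 0.22 to 0.40 elsewhere. Their part in the differences of the ribosomal protein genes was not tested.

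Genes of like brightness differed about as much. Over 22 other tested genes at a level of 14 or more, the median difference was 0.14 and 22 were higher, against a median of 0.13 over the 36 ribosomal protein genes there. The 22 include EEF1A1, VIM, NACA, PABPC1 and NPM1, which are on the list of other TOP mRNAs described below. Over 88 other genes from 13 up to 14, the median was 0.16 and 87 were higher, against 0.13 over 12 ribosomal protein genes. From 11 up to 12, a band with no ribosomal protein gene, the median of 699 genes was 0.21. After quantile normalization of the deposited values the median of the 52 genes was -0.008, with 21 above 0 and 31 below, where 51.5% of all tested probe sets lay above 0. It ranged from -0.17 (RPL36) to 0.18 (RPL27A). Other genes at 14 or more went from a median of 0.14 to 0.006 and all tested probe sets from 0.06 to 0.004. The shift toward 0 included genes outside the family. Quantile normalization gives every array the same distribution, and 41 of the 141 probe sets at 14 or more read the 52 genes. A further 30 list a matching ribosomal protein symbol among several. A median near 0 at such levels may therefore be set in part by the method, which was not tested.

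**Figure D3:**
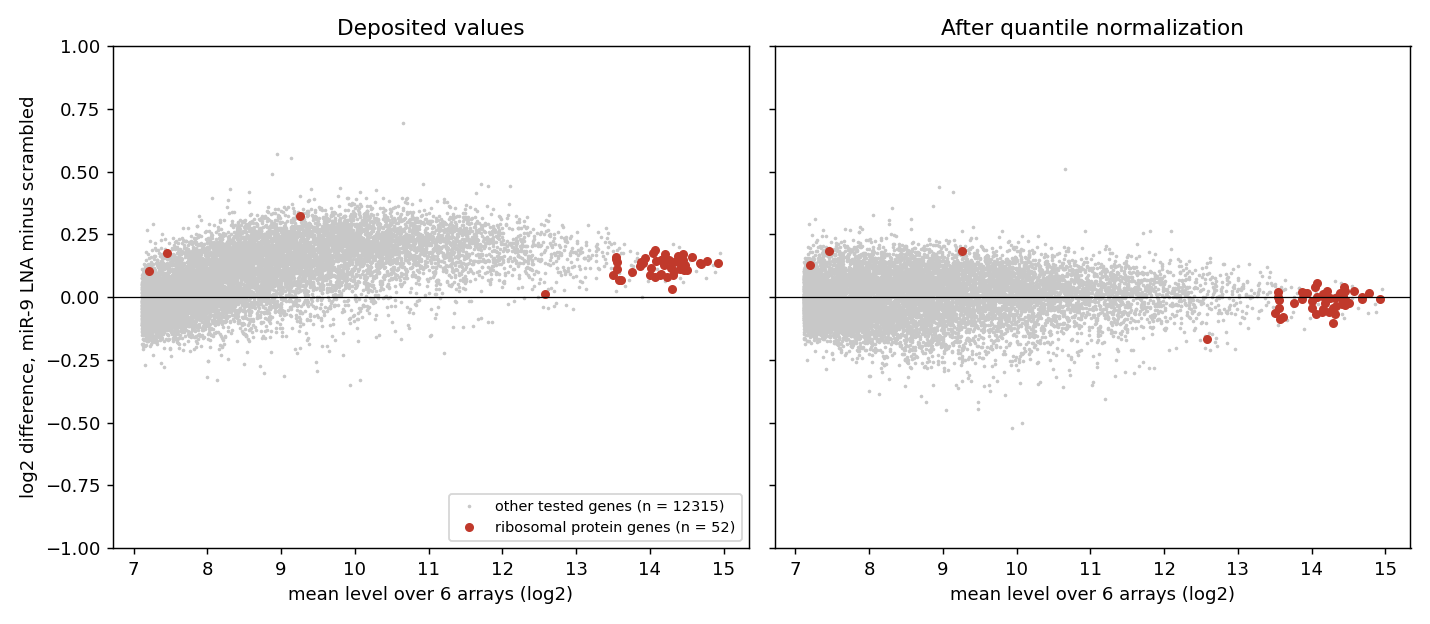
Each point is 1 of the 12367 tested genes, placed by its mean log2 level over 6 arrays and its log2 difference between the miR-9 LNA and the scrambled LNA, in the deposited values (left) and after quantile normalization (right). The 52 ribosomal protein genes, in red, have a median difference of 0.13 on the left and -0.008 on the right.

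Large- and small-subunit genes had similar medians. The 30 large-subunit genes had a median difference of 0.14, the 20 small-subunit genes one of 0.13 and the 2 stalk genes one of 0.16, with every gene positive. After quantile normalization the medians were -0.004, -0.02 and 0.09, with 15, 5 and 1 genes above 0. Scrambled replicate 1 was the lowest array for 28 of the large-subunit genes, 20 of the small-subunit genes and both stalk genes. Whether the subunits differ from each other was not tested. The median difference was 0.1360 over the 34 genes with a TOP run and 0.1349 over the 12 without one. After quantile normalization these medians were -0.0067 and -0.0003.

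Among large-subunit genes, RPL41 was at 15.06, 14.98 and 14.93 on the miR-9 LNA arrays and at 14.63, 14.98 and 14.96 on the scrambled arrays. Only scrambled replicate 1 was low, and the groups overlapped. The difference was 0.13 ± 0.10 (95% confidence interval -0.11 to 0.38, limma adjusted p = 0.547). RPL37A, a zinc-binding protein, was at 14.97, 14.82 and 14.76 on the miR-9 LNA arrays against 14.47, 14.84 and 14.81 on the scrambled ones. RPL23A, which lies by the tunnel exit where nascent chains emerge, was at 14.84, 14.70 and 14.71, and at 14.35, 14.72 and 14.76. Both genes showed a pattern like that of RPL41, with scrambled replicates 2 and 3 above 1 or more of the miR-9 LNA arrays. Their differences were 0.14 ± 0.11 and 0.14 ± 0.11 (limma adjusted p = 0.554 and 0.576).

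RPL3, a protein near the peptidyl transferase centre, was at 14.002, 13.90 and 13.93 on the miR-9 LNA arrays against 13.67, 13.81 and 13.94 on the scrambled ones. Its groups overlapped through scrambled replicate 3 alone. The difference was 0.14 ± 0.08 (95% confidence interval -0.05 to 0.33, limma adjusted p = 0.445). RPL11, which with RPL5 carries the smallest ribosomal RNA into the large subunit and binds MDM2, was at 13.64, 13.64 and 13.60, and at 13.26, 13.55 and 13.65. Its miR-9 LNA arrays were tightly grouped (SD 0.02) and scrambled replicate 3 lay above them all. The RPL11 difference was 0.14 ± 0.10 (limma adjusted p = 0.531).

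RPL14, RPL24, RPL6 and RPL19, structural proteins of the large subunit, had among the smallest p of the family. RPL14 was at 14.24, 14.06 and 14.09 on the miR-9 LNA arrays against 13.78, 14.02 and 14.07 on the scrambled ones, differing by 0.18 ± 0.09 (limma adjusted p = 0.417). RPL24 was at 14.31, 14.09 and 14.10, and at 13.76, 14.12 and 14.06, differing by 0.19 ± 0.11 (limma adjusted p = 0.453). In both genes scrambled replicate 1 was low and miR-9 LNA replicate 1 high, with the other 4 arrays within 0.07 of one another. RPL6 and RPL19 differed by 0.16 ± 0.10 and 0.15 ± 0.10 (limma adjusted p = 0.463 and 0.480). The differences of RPL14, RPL24, RPL6 and RPL19 were 0.09, 0.08, 0.06 and 0.05 without scrambled replicate 1. RPL14 and RPL19 were the members higher in all 3 same-numbered pairs together with RPS15 and RPL27A.

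RPL27A was the gene of largest difference and the only one of the 52 (1.92%) whose groups did not overlap, where 18.1% of all tested probe sets were higher and 3.97% lower without overlap. It was at 9.49, 9.41 and 9.37 on the miR-9 LNA arrays against 8.71, 9.34 and 9.24 on the scrambled ones. The gap between the groups was narrow, since scrambled replicate 2 lay just under miR-9 LNA replicate 3, and scrambled replicate 1 lay far below. The difference was 0.32 ± 0.15 (95% confidence interval -0.03 to 0.68, limma adjusted p = 0.376), and by exact permutation of the arrays (two-sided) p was 0.1, which is the minimum for 3 against 3. Without scrambled replicate 1 it was 0.13, and after quantile normalization 0.18.

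RPL36 had the smallest difference. It was at 12.84, 12.38 and 12.54 on the miR-9 LNA arrays against 12.54, 12.57 and 12.61 on the scrambled ones. Its scrambled arrays lay close together (SD 0.03) and the miR-9 LNA arrays spread on both sides of them (SD 0.23). The difference was 0.01 ± 0.11 (95% confidence interval -0.25 to 0.28, limma adjusted p = 0.960). RPL36A was at 7.31, 7.31 and 7.15 on the miR-9 LNA arrays against 7.16, 7.14 and 7.17 on the scrambled ones, differing by 0.10 ± 0.07 near the filter (limma adjusted p = 0.477). Its groups overlapped through miR-9 LNA replicate 3.

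The stalk proteins RPLP1 and RPLP2 draw elongation factors to the ribosome. RPLP1 was at 14.56, 14.45 and 14.46 on the miR-9 LNA arrays against 14.10, 14.45 and 14.50 on the scrambled ones, differing by 0.14 ± 0.11 (limma adjusted p = 0.561). RPLP2, read by a dim probe set, was at 7.61, 7.39 and 7.62, and at 7.23, 7.49 and 7.38, differing by 0.17 ± 0.09 (limma adjusted p = 0.416). The groups overlapped for both.

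Among small-subunit genes, RPS6, the target of the S6 kinases, was at 14.07, 14.02 and 14.06 on the miR-9 LNA arrays against 13.66, 14.09 and 14.13 on the scrambled ones. Scrambled replicates 2 and 3 lay above all miR-9 LNA arrays and scrambled replicate 1 far below. The difference was 0.09 ± 0.12 (95% confidence interval -0.20 to 0.38, limma adjusted p = 0.741), and -0.06 without scrambled replicate 1. RPS19, mutated in Diamond-Blackfan anaemia, was at 14.55, 14.41 and 14.48, and at 14.06, 14.42 and 14.52, differing by 0.14 ± 0.12 (limma adjusted p = 0.573). RPS14, lost in the 5q- syndrome of myelodysplasia, was at 14.49, 14.31 and 14.34, and at 14.01, 14.39 and 14.43, differing by 0.10 ± 0.12 (limma adjusted p = 0.686). The differences of RPS19 and RPS14 were 0.008 and -0.03 when scrambled replicate 1 was left out.

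RPS4X, the X-linked form of its protein, was at 14.86, 14.73 and 14.67 on the miR-9 LNA arrays against 14.39, 14.75 and 14.73 on the scrambled ones, differing by 0.13 ± 0.11 (limma adjusted p = 0.578). RPS15, whose tail reaches the decoding centre, was at 14.72, 14.62 and 14.61, and at 14.26, 14.61 and 14.60, differing by 0.16 ± 0.10 (limma adjusted p = 0.484). Apart from the pair of arrays numbered 1, the RPS15 values lay within 0.02 of one another. RPS9, near the mRNA entry channel, was at 13.61, 13.45 and 13.56, and at 13.20, 13.51 and 13.65, differing by 0.09 ± 0.12 (limma adjusted p = 0.727). The groups overlapped for all 3 genes.

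**Figure D4:**
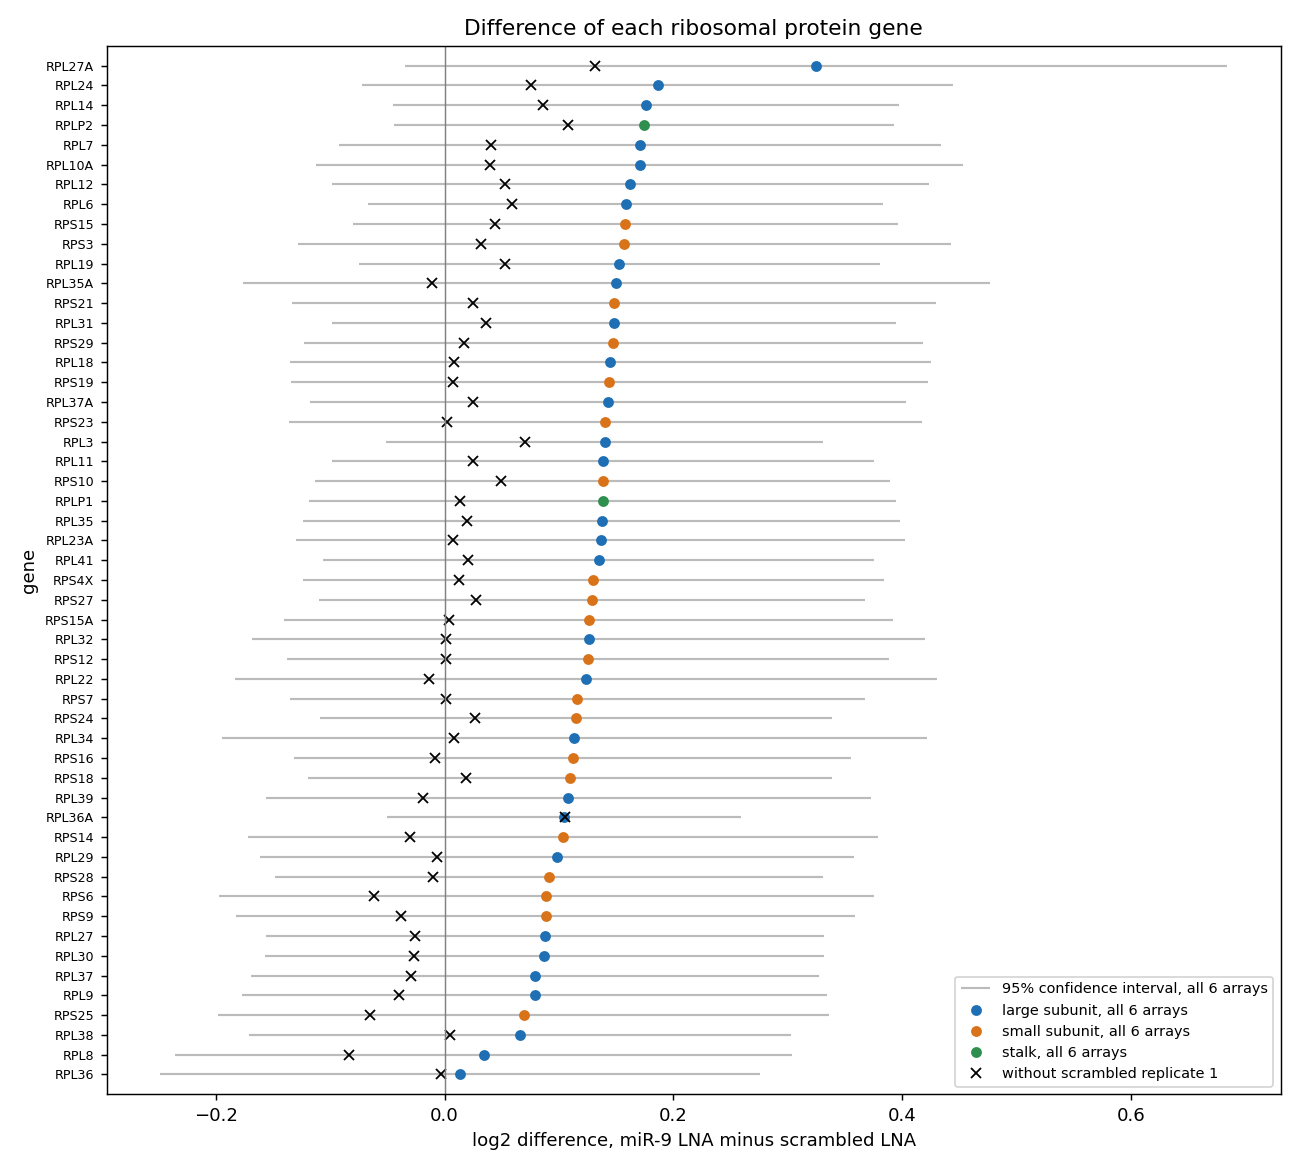
Circles give the log2 difference of each of the 52 ribosomal protein genes with its 95% confidence interval from limma (grey lines) over all 6 arrays, and crosses the difference without scrambled replicate 1. Every circle lies above 0 and every interval includes 0, while the crosses have a median of 0.01.

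The members moved together from array to array, and what was left after that shared movement was small. Other bright genes shared the low scrambled replicate 1, in 22 of 22 at a level of 14 or more. The spread left over for such genes is not given here, so the movement is not shown to be particular to the family. With the median of the 52 genes on each array subtracted, the SD of a gene over the 6 arrays had a median of 0.04 and ranged from 0.01 (RPS15A) to 0.15 (RPL36). These relative values show only unequal change within an array. By them the groups did not overlap for 4 genes, RPL8, RPL9, RPL37 and RPS25, all lower with the miR-9 LNA, where 5.87% of all tested probe sets treated the same way did not overlap in the lower direction and 1.12% in the higher, against 7.69% and 0 of the 52. These genes are named after their values were seen. The shares over all probe sets are no like-for-like background, since subtracting the family median also shifts probe sets without the shared movement. Before the subtraction 18.1% of all tested probe sets were higher without overlap. RPL8, a protein near the peptidyl transferase centre, lay 0.06, 0.03 and 0.05 above the family median with the miR-9 LNA and 0.15, 0.23 and 0.08 above it with the scrambled LNA. RPL9 lay at -0.17, -0.16 and -0.15, and at -0.10, -0.08 and -0.11. The absolute differences were 0.03 ± 0.12 for RPL8, 0.08 ± 0.11 for RPL9, 0.08 ± 0.11 for RPL37 and 0.07 ± 0.11 for RPS25 (limma adjusted p = 0.901, 0.743, 0.733 and 0.786). After quantile normalization, RPL8, RPL9, RPL37 and RPL30 were lower without overlap and 0 of the 52 were higher, where 5.72% of all tested probe sets were lower and 5.98% higher.

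The 52 genes were read by 111 probe sets, of which 100 were tested and 11 lay below the filter. Of the 100, 92 were higher and 8 lower with the miR-9 LNA, where 66.9% of all tested probe sets were higher, and 0 passed an adjusted p under 0.05 in limma. At an unadjusted p under 0.05, 5 were higher and 0 lower, against 13.8% and 0.626% of all tested probe sets. Of the brightest probe sets, 15 have names ending in _x_at and 27 in _s_at, endings the maker gives to probe sets that may read other transcripts or several transcripts of a family, and ribosomal protein genes have many near-identical processed pseudogenes. The medians were 0.14 over the 10 brightest probe sets with a plain ending, 0.11 over those ending in _s_at and 0.14 over those ending in _x_at. Values of single genes of this family may therefore hold signal from copies.

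All 5 probe sets with a low p were dimmer ones of genes with a brighter probe set, and they are named after their values were seen. For RPL38, which helps to translate certain developmental mRNAs, the brightest probe set, 202029_x_at, was at 13.81, 13.49 and 13.53 on the miR-9 LNA arrays against 13.42, 13.62 and 13.59 on the scrambled ones, differing by 0.07. RPL38 probe set 202028_s_at was at 10.06, 9.88 and 9.97, and at 9.36, 9.86 and 9.73, differing by 0.32 (limma unadjusted p = 0.0358). RPL38 probe set 221943_x_at differed by 0.38 (limma unadjusted p = 0.0480). At these dimmer probe sets of RPL38 every miR-9 LNA array lay above every scrambled array, while at the bright one they overlapped. Of all tested probe sets 18.1% were higher without overlap, and genes outside the family from 9 up to 10 had a median difference of 0.17. Of the 48 tested probe sets other than the brightest of a gene, 40 were higher and 8 lower. RPL22 differed by 0.27 at 221726_at, RPS16 by 0.21 at 226130_at and RPS24 by 0.25 at 1555878_at (limma unadjusted p = 0.0428, 0.0173 and 0.0267), against 0.12, 0.11 and 0.11 at their brightest probe sets. After quantile normalization the dimmer probe sets differed by 0.15 and 0.22 (RPL38), 0.08 (RPL22), 0.18 (RPS16) and 0.12 (RPS24). When scrambled replicate 1 was left out they differed by 0.18 and 0.18 (RPL38), 0.14 (RPL22), 0.16 (RPS16) and 0.21 (RPS24).

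Genes that work with ribosomal proteins were described from lists by role. In limma, 0 genes of any list passed an adjusted p under 0.05 (0 of all tested probe sets). Over all 12367 tested genes the median difference was 0.08 and 8661 were higher. Below a level of 9 the median of genes outside the family was 0.01. From 9 up to 10 it was 0.17, with 1924 of 2078 higher. In the next band, which starts at 10, it was 0.20, with 1289 of 1345 higher. Every list had a median level above 9, so 0.08 is a low background for the list medians. Whether any list differed from genes of like level was not tested. Of the 12367 genes, 2155 were higher and 74 lower at an unadjusted p under 0.05, which is the background for the counts of each list. Of 8 other ribosomal protein genes, which are fusions and relatives outside the name rule, 7 were higher and 1 lower, with a median of 0.16 and 1 at an unadjusted p under 0.05. That gene, RPL7L1, a relative of RPL7 that acts in ribosome assembly, had means of 12.13 ± 0.05 (miR-9 LNA) and 11.81 ± 0.10 (scrambled), differing by 0.32 ± 0.07 (limma adjusted p = 0.296). RPL36AL and FAU, a ubiquitin-like fusion that yields RPS30, differed by 0.20 ± 0.11 and 0.17 ± 0.09 (limma adjusted p = 0.423 and 0.432). The list's median was 0.07 without scrambled replicate 1 and 0.03 after quantile normalization.

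Other mRNAs of the TOP class were also bright and mostly higher, as were genes of like level. Of 16 tested, 15 were higher and 1 lower, with a median difference of 0.17 at a median level of 13.33, and 3 had an unadjusted p under 0.05, all higher. Scrambled replicate 1 was the lowest array for 16 of 16. NAP1L1, a histone chaperone, differed by 0.22 ± 0.07, HNRNPA1, a splicing regulator, by 0.28 ± 0.11 and EIF3H, an initiation factor subunit, by 0.21 ± 0.09 (limma adjusted p = 0.296, 0.318 and 0.343). Without scrambled replicate 1 the median was 0.08 with 13 of 16 higher, and after quantile normalization 0.01 with 9 of 16 higher.

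Of 17 tested regulators of TOP mRNA translation, 13 were higher and 4 lower (median 0.15), with 4 at an unadjusted p under 0.05, all higher. LARP1, which binds the TOP element, had means of 11.60 ± 0.02 (miR-9 LNA) and 11.31 ± 0.12 (scrambled), differing by 0.29 ± 0.07. EIF4EBP2, a repressor of cap-dependent initiation, and TIAL1, an RNA-binding protein, differed by 0.19 ± 0.06 and 0.22 ± 0.09 (limma adjusted p = 0.296, 0.296 and 0.320 for LARP1, EIF4EBP2 and TIAL1). All 13 chaperones and import partners of ribosomal proteins were higher (median 0.19), with 4 at an unadjusted p under 0.05. Among them the importin IPO5 differed by 0.31 ± 0.07 and PDCD2 by 0.20 ± 0.07 (limma adjusted p = 0.296 for both), and NAP1L1 is on this list too. After quantile normalization 8 of the 17 regulators and 7 of the 13 chaperones were above 0, and without scrambled replicate 1 the medians were 0.06 and 0.12.

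Of 20 genes for the transcription of ribosomal protein genes and ribosomal RNA, 18 were higher and 2 lower (median 0.18), with 3 at an unadjusted p under 0.05. POLR1B, a subunit of RNA polymerase I, differed by 0.24 ± 0.08, TBP by 0.20 ± 0.07 and TAF1D by 0.32 ± 0.14 (limma adjusted p = 0.303, 0.306 and 0.347). The median of this list was 0.09 without scrambled replicate 1, and 0.02 with 13 of 20 above 0 after quantile normalization. Of 11 genes of ribosome quality control, 10 were higher and 1 lower (median 0.20), with 7 at an unadjusted p under 0.05, all higher. ASCC3 and ABCE1, which take apart stalled and terminated ribosomes, differed by 0.28 ± 0.06 and 0.29 ± 0.08, and the ubiquitin ligase gene LTN1 by 0.21 ± 0.06 (limma adjusted p = 0.296 for each). This list held its median best without scrambled replicate 1 among the lists described here, at 0.18, and had 8 of 11 above 0 after quantile normalization.

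Of 8 genes of nucleolar stress, the partners of free ribosomal proteins, 5 were higher and 3 lower (median 0.08), with 1 at an unadjusted p under 0.05. That gene, MDM4, a p53 inhibitor, differed by 0.40 ± 0.06 (limma adjusted p = 0.296). RRS1 and NCL, nucleolar proteins of ribosome assembly, differed by 0.23 ± 0.11 and 0.18 ± 0.10 (limma adjusted p = 0.382 and 0.435). This list's median was -0.01 without scrambled replicate 1.

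Mitochondrial ribosomal proteins were dimmer, with a median level of 10.30. Of 75 genes 70 were higher and 5 lower (median 0.15), with 10 at an unadjusted p under 0.05, all higher, a share no larger than the 2155 of 12367 over all tested genes. MRPS5, MRPS27 and MRPS10 differed by 0.24 ± 0.06, 0.25 ± 0.08 and 0.31 ± 0.11 (limma adjusted p = 0.296, 0.296 and 0.303). Without scrambled replicate 1 the median was 0.10 with 66 of 75 higher, against 0.01 with 36 of 52 higher for the cytosolic genes. The cytosolic genes had a median level of 14.18, and genes outside that family showed a like contrast by level. Without scrambled replicate 1 their median was 0.15 in the band that starts at 10, and 0.03 at 14 or more. The contrast therefore does not separate family from level. After quantile normalization the mitochondrial median was -0.03 with 29 of 75 above 0. The difference between the mitochondrial and cytosolic genes was not tested.

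**Figure D5:**
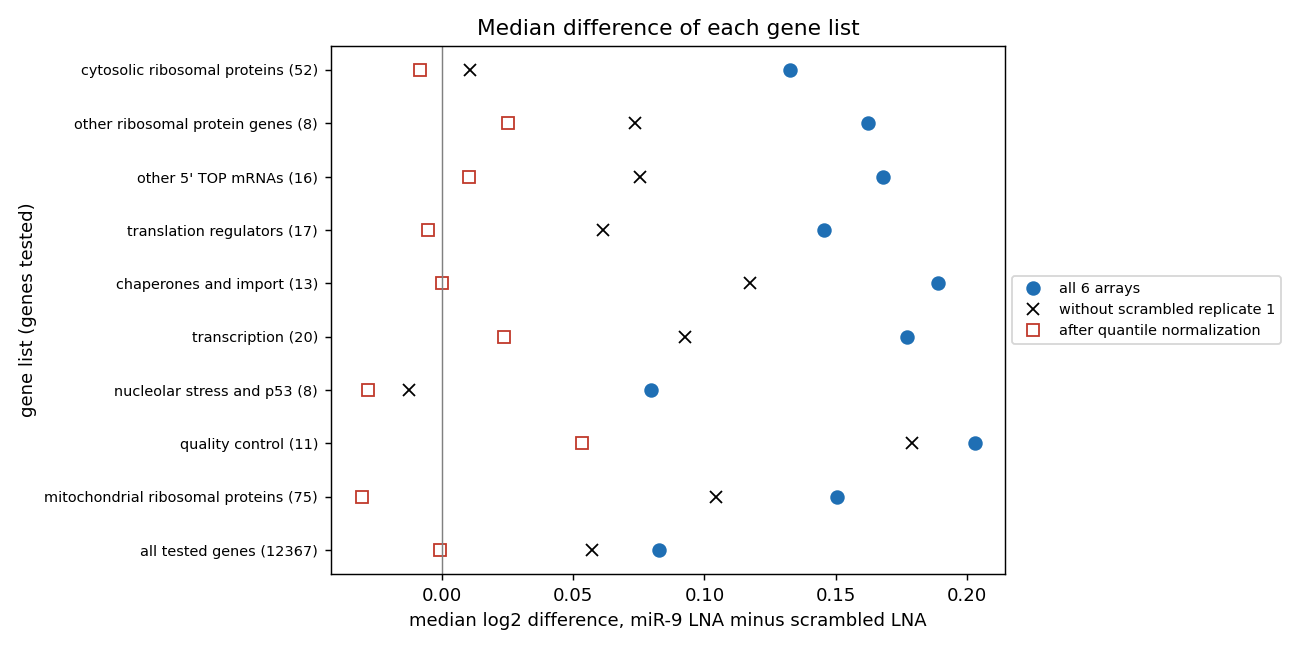
Each row is a gene list with the number of its tested genes, and symbols give the median log2 difference between the miR-9 LNA and the scrambled LNA over all 6 arrays (circles), without scrambled replicate 1 (crosses) and after quantile normalization (squares). The cytosolic ribosomal proteins have medians of 0.13, 0.01 and -0.008.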

How the data were processed

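The authors hybridized total RNA of 3 miR-9 LNA and 3 scrambled LNA samples and deposited RMA values on a log2 scale. The submitters' processing notes name affy and RMA, and their settings are not given in the sources used here. Each array's lowest value was about 6. The deposited arrays did not share one distribution, with 99th percentiles from 12.14 (scrambled replicate 1) to 12.56 (miR-9 LNA replicate 1).

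Of 54675 probe sets, 62 controls were left out, and 27307 with a mean at or above the median (7.11) were tested with limma 3.58.1 in R 4.3.3 (lmFit, eBayes, two-sided, Benjamini-Hochberg, threshold 0.05). Names came from the platform annotation, and Entrez IDs of all 52 members were found in the RefSeq table of GRCh38.p14. Members and lists were chosen with earlier results of these data known. The rule named the 8 members of smallest p in each direction, the 5 brightest and 5 dimmest, 12 set members where present, and up to 3 genes of smallest p per list. The set members were RPLP0, RPLP1, RPLP2, RPL5, RPL11, RPS6, RPS19, RPS14, RPS27A, RPL13A, RPL41 and RPS4X. Single values were compared by exact permutation. Deviations of same-numbered arrays correlated at r = 0.231, 0.193 and 0.634 across probe sets, and those of unlike number at -0.429 to 0.168. Only the pair numbered 3 stood clearly apart, so the values do not settle whether the numbers pair the arrays, and the labels do not say. The main fit used no pairing. The alternatives tried changed the filter, normalization, variance model, weights, replicate block, probe set rule and leaving out arrays. The scripts were tested on simulated data. Plots and promoter scans used Python 3.11.15 and matplotlib 3.10.9.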

Additional observations from a re-analysis of the deposited data

How the results depend on the processing

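No ribosomal protein gene and no tested probe set passed an adjusted p under 0.05 in limma in any of the 18 alternatives run, and the lowest limma adjusted p of a named gene was 0.121. What changed was the size and sign of the small differences. Without scrambled replicate 1 the family median stayed above 0, and it was below 0 after quantile normalization, after cyclic loess, and without both arrays numbered 1. Of the 52 genes, 21 were above 0 after quantile normalization, 8 after cyclic loess, 33 with array weights, and 11 without both arrays numbered 1, the last chosen after seeing the data. Of the 23 genes with a tested probe set of plain name ending, 22 were above 0 at that probe set, and 2 had an unadjusted p under 0.05, as had 1 gene when all probe sets of a gene were averaged. Leaving out each array in turn gave 0 to 1 such genes, 36 to 52 genes above 0, and medians of 0.01 to 0.20, the lowest without scrambled replicate 1. The medians ranged from 0.01 to 0.21 for large-subunit, 0.006 to 0.18 for small-subunit and 0.06 to 0.21 for stalk genes. The medians of all, large-subunit and small-subunit genes were -0.0308, -0.0265 and -0.0354 after cyclic loess, and -0.0403, -0.0395 and -0.0421 without both arrays numbered 1.

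Over all tested probe sets, 3755 were higher and 171 lower at an unadjusted p under 0.05 in limma. The counts were 650 and 593 after quantile normalization, 619 and 729 after cyclic loess, 5944 and 274 with the replicate block, and 2305 and 931 without both arrays numbered 1. Those lower numbered 1032 with no filter, 19 with the stricter filter, 65 with arrays centred on their medians, 359 with a variance trend and 1183 with array weights. Leaving out each array gave 2303 to 4163 higher and 42 to 856 lower. The replicate block changed no call at an adjusted p under 0.05.

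Among the lists, the medians after quantile normalization and after cyclic loess were 0.0101 and 0.0029 (other TOP mRNAs), -0.0052 and -0.0151 (translation regulators), 1e-04 and -0.0054 (chaperones), -0.0281 and -0.0352 (nucleolar stress), 0.0532 and 0.0410 (quality control), and -0.0307 and -0.0400 (mitochondrial), and the other ribosomal protein genes were at 0.0036 after cyclic loess. The nucleolar stress list was at 0.1389 with the stricter filter, 0.0262 with array weights, 0.1669 at probe sets of plain ending and 0.0147 without both arrays numbered 1, and from -0.0125 to 0.1546 without single arrays. Averaging all probe sets put the regulators at 0.0496 and quality control at 0.0811. The other TOP mRNAs were at 0.0241 without both arrays numbered 1.

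Gene differences that turned negative after quantile normalization were RPL41 -0.0077, RPL23A -0.0092, RPS9 -0.0620, RPL36 -0.1651, RPLP1 -0.0058, RPL11 -0.0103, RPS6 -0.0425, RPS19 -0.0019 and RPS14 -0.0346. After cyclic loess they were RPL3 -0.0297, RPL6 -0.0152, RPL19 -0.0127, RPL41 -0.0185, RPL37A -0.0126, RPS4X -0.0274, RPL23A -0.0212, RPS15 -0.0013, RPS9 -0.0856, RPL36 -0.1686, RPLP1 -0.0237, RPL11 -0.0346, RPS6 -0.0789, RPS19 -0.0179, RPS14 -0.0598 and FAU -0.0096. With array weights they were RPS9 -0.0137, RPL36 -0.0701, RPS6 -0.0289 and RPS14 -0.0211. Without both arrays numbered 1 they were RPL41 -0.0144, RPL37A -0.0357, RPS4X -0.0407, RPL23A -0.0390, RPS9 -0.0738, RPL36 -0.1293, RPLP1 -0.0243, RPS6 -0.0704, RPS19 -0.0299 and RPS14 -0.0825. At probe sets of plain ending NCL was at -0.0625 and MRPS5 at -0.0121. Without single arrays RPL36 ranged from -0.1123 to 0.1163, RPS9 from -0.0384 to 0.1856, RPS6 from -0.0615 to 0.1741 and RPS14 from -0.0300 to 0.1783. The cause of these changes was not tested.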
